A study of Mus musculus with 2 samples.

Results

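The genes described here act in mitosis and on the mitotic spindle. They are 44 genes chosen by symbol for their textbook roles: the cyclins and kinases that drive entry into mitosis, the spindle checkpoint, the kinetochore, the motors of the spindle and the machinery of cytokinesis. All 44 were found among the 15576 genes of the deposited table, each in 1 row under its symbol.

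The study measured messenger RNA by RNA sequencing in bone marrow-derived macrophages (BMDMs) of wild-type mice, which are macrophages grown in culture from marrow progenitors. There were 2 libraries. For the DCA library the cells were exposed for 24 h to deoxycholic acid, a secondary bile acid made by gut bacteria, at 100 µM. Cells of the NC library were not. The labels leave unclear whether the cells were collected at the end of the 24 h or a day later. No source used here gives the strain and age of the mice, the growth factor of the culture, the vehicle or whether animals were pooled. Every difference below compares these 2 libraries, 1 for each group, and has no replicate check, and no p-value was computed.

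A dividing cell switches on this set of genes late in the cycle, so that their transcripts are abundant in G2 and mitosis and scarce in resting cells. Cyclin B bound to the kinase Cdk1 starts mitosis, the kinetochore ties each chromosome to spindle fibres, and the spindle checkpoint holds back the anaphase-promoting complex (APC/C), a ubiquitin ligase, until every chromosome is attached. Macrophage progenitors in marrow cultures divide in response to M-CSF and slow as they mature. In a bulk culture, fewer dividing cells and less RNA of these genes in each dividing cell cannot be told apart.

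The promoters of such genes are known for a short element, the cell cycle genes homology region (CHR), through which the DREAM complex silences them in resting cells and B-Myb and FOXM1 act in dividing ones, and for CCAAT boxes bound by NF-Y. The letters TTTGAA, the core of the CHR, and CCAAT were searched on both strands in RefSeq promoter windows of build GRCm38.p6, each from 250 bases before to 50 bases after a gene's start. Windows were found for 38 members, 3 of them with 2 windows, and not for Ccna2, Aurkb, Incenp, Tpx2, Cdc25c and Kif20a. The 120 bases before the start of 11 members are shown here, read 5′ to 3′ on the gene's strand, with every match to either motif in capitals, and a match on the opposite strand appears as its reverse complement. Cdk1, Prc1 and Espl1 had the lowest DCA over NC ratios of all members, Hmmr and Ttk were among the highest, Mki67 and Top2a had the most reads, Cdc20 and Kif11 have a CHR core close before the start, Bub1 has CCAAT boxes without a CHR core, and Birc5 has neither in its window. The CHR cores of Hmmr and Ttk begin 9 and 8 bases after the start and so lie outside the stretch shown.
Cdk1 (chr10:69352913-69353032, minus strand): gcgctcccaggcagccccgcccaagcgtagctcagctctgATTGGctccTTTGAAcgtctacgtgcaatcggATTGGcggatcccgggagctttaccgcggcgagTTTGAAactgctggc
Prc1 (chr7:80294356-80294475, plus strand): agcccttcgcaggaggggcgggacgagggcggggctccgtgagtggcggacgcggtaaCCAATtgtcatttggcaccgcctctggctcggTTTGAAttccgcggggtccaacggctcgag
Espl1 (chr15:102296173-102296292, plus strand): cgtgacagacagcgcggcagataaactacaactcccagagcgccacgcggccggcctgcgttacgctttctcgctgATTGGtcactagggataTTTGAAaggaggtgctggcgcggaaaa
Cdc20 (chr4:118437344-118437463, minus strand): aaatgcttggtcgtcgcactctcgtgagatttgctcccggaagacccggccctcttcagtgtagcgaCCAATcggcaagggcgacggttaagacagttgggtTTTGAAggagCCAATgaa
Kif11 (chr19:37376262-37376381, plus strand): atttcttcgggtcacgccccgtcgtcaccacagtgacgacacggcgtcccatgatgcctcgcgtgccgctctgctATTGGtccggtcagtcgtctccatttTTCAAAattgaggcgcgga
Mki67 (chr7:135716380-135716499, minus strand): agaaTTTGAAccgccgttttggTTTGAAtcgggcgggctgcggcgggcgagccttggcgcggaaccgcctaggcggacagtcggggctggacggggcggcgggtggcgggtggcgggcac
Top2a (chr11:99024190-99024309, minus strand): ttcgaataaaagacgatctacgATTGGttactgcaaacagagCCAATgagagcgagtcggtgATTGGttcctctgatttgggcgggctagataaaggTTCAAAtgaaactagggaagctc
Hmmr (chr11:40733438-40733557, minus strand): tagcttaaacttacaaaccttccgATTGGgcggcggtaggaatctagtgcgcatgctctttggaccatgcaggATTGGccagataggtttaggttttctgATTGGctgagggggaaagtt
Ttk (chr9:83834569-83834688, plus strand): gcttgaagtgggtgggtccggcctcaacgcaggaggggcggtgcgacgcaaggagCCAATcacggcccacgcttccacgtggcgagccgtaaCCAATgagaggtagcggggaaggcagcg
Bub1 (chr2:127831860-127831979, minus strand): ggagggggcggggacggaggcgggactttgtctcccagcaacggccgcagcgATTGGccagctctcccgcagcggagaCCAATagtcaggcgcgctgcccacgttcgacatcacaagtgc
Birc5 (chr11:117849117-117849236, plus strand): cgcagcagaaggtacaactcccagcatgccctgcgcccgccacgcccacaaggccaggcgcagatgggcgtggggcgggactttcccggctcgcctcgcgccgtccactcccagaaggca

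The CHR core was a shared feature of the promoters. It was present in the window of 29 of the 38 members (76.3%), against 14.5% of the 7784 tested genes with a window and 20.2% of all 27025 genes with a window. Counted over windows of equal length, the shares were 78.0% of 41 for the members and 17.9% of all 32851. CCAAT was also found in 29 of the 38 members (76.3%), against 43.3% of tested genes with a window, and 25 members (65.8%) held both, against 6.0%. Of 40 CHR matches in the members, 29 (72.5%) began within 50 bases of the start site on either side, a share not computed for other genes. Both windows of a gene with 2 were counted, so that a site in both appears at 2 positions. Between 100 bases before and 50 after the start, 27 members (71.1%) had a CHR core, against 5.77% of tested genes with a window. In 1 case a CHR match and a CCAAT match shared bases. Genes of DNA replication, which peak earlier in the cycle, had the CHR core in 3 of 32 windowed genes (9.4%) and CCAAT in 22 (68.8%). In lists closer to the members the CHR core was found in 43.5% of 23 other kinesins and spindle genes and 43.8% of 16 condensin and cohesin genes. It was found in 39.3% of 28 other kinetochore genes and 38.9% of 18 DREAM, B-Myb and FOXM1 factors. Not all mitotic lists had a raised share. The CHR core was in 18.75% of 16 APC/C subunits, 22.2% of 9 centrosome genes and 20% of 5 regulators of mitotic entry. In a list unrelated to mitosis, 5 stromal markers, the share was 60%. The E2F letters TTTGGCGC and TTTCCCGC were found in 1 member, Kif15 (2.63%), against 3.78% of tested genes with a window. They were found in 31.25% of 32 replication genes and 37.5% of 16 condensin and cohesin genes, but in 4.35% of 23 other kinesins and spindle genes. Other E2F sequences were not searched. A match describes the letters only.

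**Figure D1:**
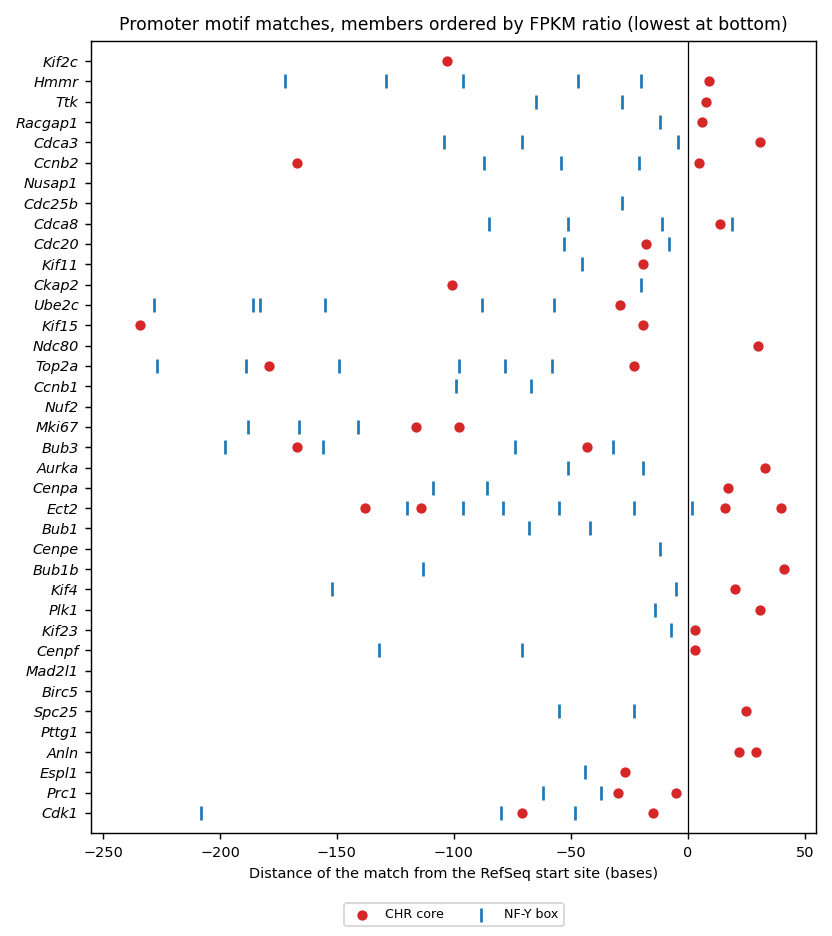
Positions of CHR core (red circles) and CCAAT, or NF-Y, box (blue bars) matches in the RefSeq promoter windows of 38 members, as the distance in bases from the start site, with members ordered from the lowest FPKM ratio at the bottom to the highest at the top. CHR matches gather close to the start site in members at both ends of the order, and Nusap1, Nuf2, Mad2l1, Birc5 and Pttg1 show neither motif.

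Ratios of members without the CHR core lay within the wider range of the members with it. The 29 members with it had a median ratio of 1.027 (range 0.940 to 1.121) and the 9 without it a median of 1.012 (0.963 to 1.072). These medians describe the members and were not tested.

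Levels are given as the deposited FPKM, fragments or reads per kilobase of gene and 1e6 reads, and differences as the FPKM ratio of DCA over NC. The read totals behind the table, rebuilt from its values, were 56.6 and 59.2 times 1e6 reads for DCA and NC. The reads of 43 of the 44 members came out as whole numbers, between 567 for Cdc25c and 40929 for Mki67. Intervals in parentheses are exact 95% intervals of the ratio from these reads. They cover counting error only, and reads that are PCR copies make the true error larger. All 44 members passed the filter of a mean FPKM of at least 1, as did 9656 genes in all.

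The cultures held macrophage transcripts beside those of other marrow cells. All 12 macrophage markers examined were present in both libraries, with a summed length-corrected level of 2023 in DCA and 2074 in NC (reads per kilobase of exon and 1e6 reads). The same sum over 12 neutrophil markers was 6340 in DCA and 5379 in NC, and over 10 B-cell markers 269.8 and 221.0. Most of the neutrophil sum came from S100a9, at 3355 in DCA and 2905 in NC, and S100a8, at 1478 and 1207. The sums therefore do not rank the cell types by amount. Cd68, a lysosomal protein of macrophages, was at 389 FPKM with DCA and 389 without, and Adgre1, which encodes F4/80, at 61.6 FPKM with DCA and 65.7 without. None of these 34 genes was at 0. Neutrophil markers were higher in DCA in 12 of 12 tested genes, B-cell markers in 8 of 8 and macrophage markers in 2 of 12, against 53.5% of all tested genes. Their median ratios were 1.179, 1.204 and 0.952. Precursors of neutrophils and B cells divide too, and their part in the values below was not tested.

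The mitotic genes were expressed in both libraries and differed little between them. Ratios ran from 0.940 for Cdk1 to 1.172 for Kif20a, and no member was 1.2-fold apart in FPKM + 1 in either direction, against 2.11% of all tested genes on the higher side and 0.715% on the lower. Of the 44 members, 30 (68.2%) were higher in DCA, against 53.5% of all tested genes, and 14 were lower, against 46.5%. The median ratio was 1.027 (interquartile range 0.984 to 1.060), and over all tested genes it was 1.006 (0.963 to 1.056). On the scale of log2(FPKM + 1), the median differences were 0.036 and 0.0067. Within 5% of equality lay 28 members (63.6%), against 53.2% of all tested genes, and within 10% lay 39 (88.6%), against 79.9%. These shares were not compared at equal depth. The tested genes include some with 3 reads, while the members had at least 567. The median half-width of the counting intervals was 5.22% over all tested genes and 4.51% over the members.

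**Figure D2:**
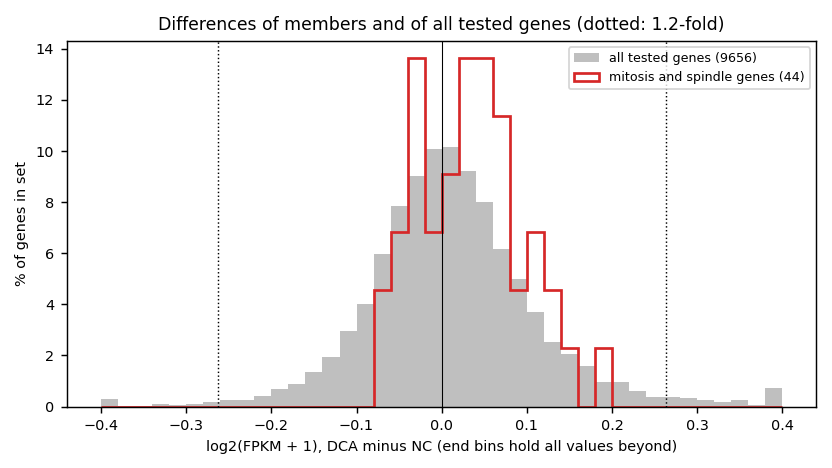
Share of genes (vertical axis, % of each set) by the log2(FPKM + 1) of DCA minus that of NC (horizontal axis), for the 44 members (red outline) and the 9656 tested genes (grey). All members lie between the dotted lines of a 1.2-fold difference.

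Summed over the members, there were 235319 reads in DCA and 239729 in NC, which is 0.416% and 0.405% of the read totals. The ratio of the scaled sums was 1.027 (1.021 to 1.033). Mki67 and Top2a gave 29.9% of the summed reads in DCA and 29.7% in NC, and without them the ratio was 1.026. The counting interval lay above 1 for 15 members (34.1%), against 25.7% of all tested genes, and below 1 for 4 (9.09%), against 20.0%. Together 43.2% of the members had an interval that excluded equality, and 45.7% of all tested genes did. In units of the counting error, the robust SD of the differences was 2.63 among the members and 2.65 among all tested genes, where counting of independent reads alone gives 1.

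**Figure D3:**
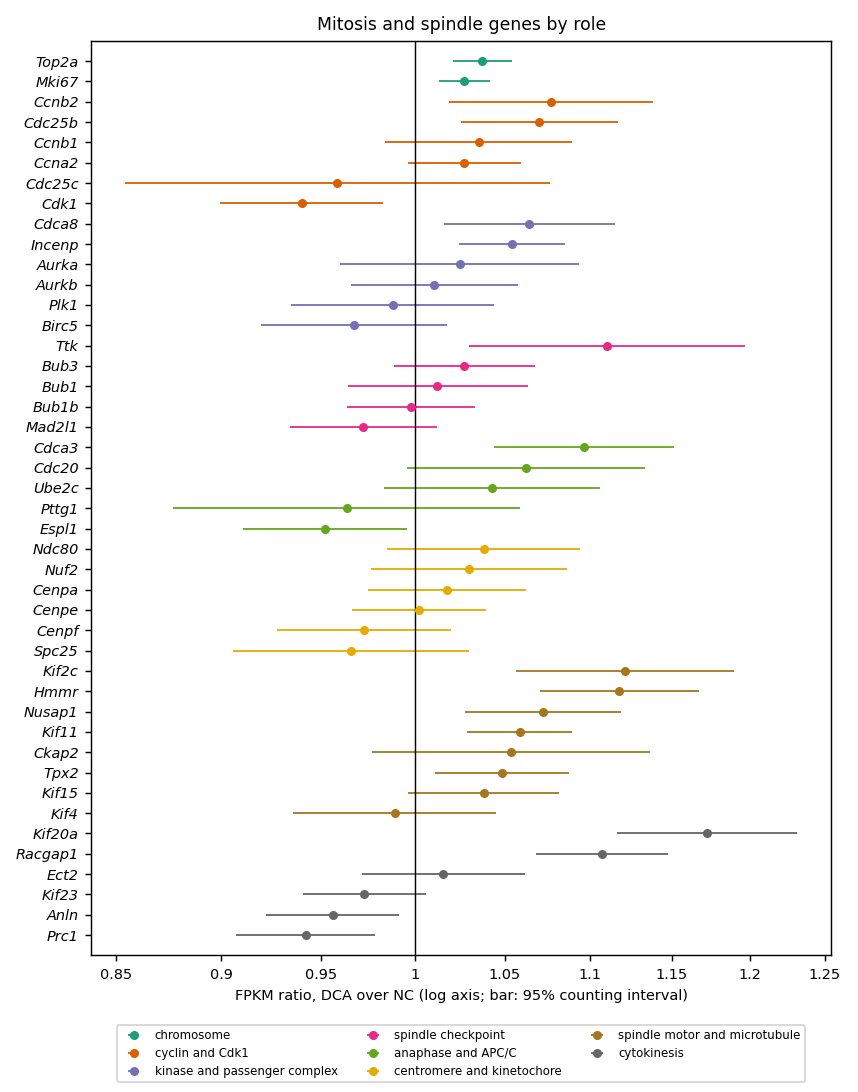
FPKM ratio of DCA over NC (horizontal log axis) for each of the 44 members, coloured by role, with 95% counting intervals from rebuilt reads, which are approximate for Bub1. The intervals of 25 members, Bub1 included, cross the line of equality, the spindle motor and microtubule genes lie mainly to its right, and the cytokinesis genes are spread from Prc1 at 0.942 to Kif20a at 1.172.

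Levels of different genes were compared after correction for length, as rebuilt reads per kilobase of merged exon and 1e6 reads. The order of the members was nearly the same in both libraries, with the first 6 places identical. Mki67, the gene of the proliferation antigen Ki-67 that coats mitotic chromosomes, stood first at 70.6 in DCA and 68.7 in NC, followed by Top2a, a topoisomerase that untangles sister chromatids, at 59.0 and 56.9. Incenp, Ccna2, Ccnb2 and Bub1b came next, between 26.1 and 37.6 in DCA. At the lower end were Ttk at 5.14 and 4.63, Cenpf at 3.83 and 3.94, and Cdc25c at 2.04 and 2.13. Bub1 is left out of this order because its reads did not come out whole with the annotated length.

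**Figure D4:**
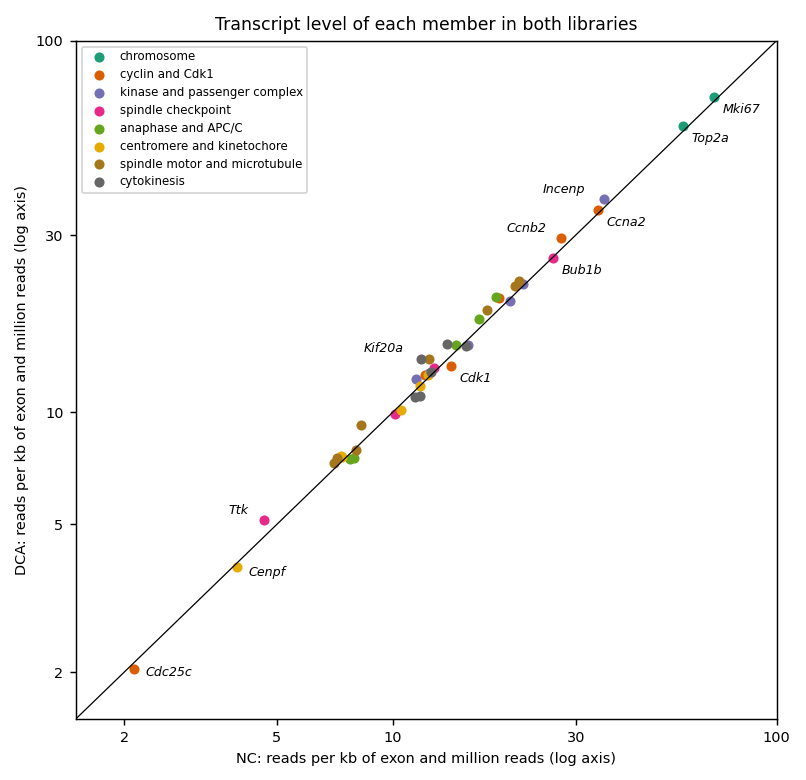
Length-corrected level of 43 members in NC (horizontal log axis) and DCA (vertical log axis), in reads per kilobase of exon and 1e6 reads, coloured by role, with the line of equality. Points lie close to the line over a range from about Cdc25c at 2.13 to Mki67 at 68.7 in NC.

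Mki67 and Top2a, the proliferation markers with the highest levels, were slightly higher in DCA. For Mki67 (ENSMUSG00000031004, GRCm38 chromosome 7, 135689784 to 135716361, minus strand) the values were 66.8 FPKM with DCA and 65.0 without, and 40173 and 40929 reads lay behind them. Its ratio was 1.027 (1.013 to 1.042). For Top2a (ENSMUSG00000020914, GRCm38 chromosome 11, 98992943 to 99024189, minus strand) they were 44.8 FPKM with DCA and 43.2 without, with 30102 and 30367 reads and a ratio of 1.037 (1.021 to 1.054). Both intervals lie above equality at this depth, although neither gene differed by as much as 5%.

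Among the genes of mitotic entry, the cyclins and the kinase they activate lay on opposite sides of equality. Cdk1 (ENSMUSG00000019942, GRCm38 chromosome 10, 69335146 to 69352938, minus strand), the catalytic kinase, showed 7.68 FPKM with DCA and 8.17 without, based on 3720 and 4141 reads, and its ratio of 0.940 (0.899 to 0.983) was the lowest of all members. Ccnb2, a B-type cyclin that brings Cdk1 to its targets, showed 29.5 FPKM with DCA and 27.4 without, with a ratio of 1.077 (1.019 to 1.138). Ccnb1, the other B-type cyclin, showed 5.02 FPKM with DCA and 4.85 without, and its ratio of 1.035 (0.984 to 1.089) includes equality. The same held for Ccna2, the cyclin of S and G2 phase, at 16.9 FPKM with DCA and 16.4 without and a ratio of 1.027 (0.996 to 1.059). Relative to Cdk1, the cyclins were higher in DCA by more than counting error. Counting is not the whole error, since the robust SD over all tested genes was 2.65 counting errors. Cdk1 itself stood at -2.73 counting errors from equality, close to that spread. Whether the cyclins differ from Cdk1 beyond that spread was not tested. The ratio of ratios was 1.145 (1.066 to 1.230) for Ccnb2, 1.101 (1.029 to 1.178) for Ccnb1 and 1.093 (1.035 to 1.153) for Ccna2. Cdc25b and Cdc25c encode phosphatases that remove inhibitory phosphates from Cdk1. The values were 8.15 FPKM with DCA and 7.62 without for Cdc25b, with a ratio of 1.070 (1.025 to 1.117). Cdc25c, the member with the fewest reads, was at 1.21 FPKM with DCA and 1.26 without, and at this depth its ratio of 0.959 (0.854 to 1.076) does not tell the libraries apart.

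The kinases of mitosis showed ratios near 1. Plk1, the Polo kinase that acts at centrosomes and kinetochores, was measured at 12.5 FPKM with DCA and 12.7 without, a ratio of 0.988 (0.935 to 1.044). Aurka, the kinase of spindle poles, was at 4.64 FPKM with DCA and 4.53 without, with a ratio of 1.025 (0.960 to 1.094), and its activator Tpx2 had a ratio of 1.049 (1.011 to 1.088). The chromosomal passenger complex corrects faulty attachments and later moves to the spindle midzone. It consists of the kinase Aurkb, the scaffold Incenp, Birc5 (survivin) and Cdca8 (borealin). Aurkb showed 8.55 FPKM with DCA and 8.46 without and a ratio of 1.011 (0.966 to 1.058), and Incenp 13.1 FPKM with DCA and 12.4 without and a ratio of 1.054 (1.024 to 1.085). Birc5, by contrast, stood at 12.1 FPKM with DCA and 12.5 without, and its ratio lay below equality at 0.967 (0.919 to 1.017), while Cdca8 reached 7.59 FPKM with DCA and 7.13 without and a ratio of 1.064 (1.016 to 1.115). Within the complex, Cdca8 and Incenp differed from Birc5 beyond counting error, with ratios of ratios of 1.1004 (1.027 to 1.179) and 1.090 (1.028 to 1.156), and the intervals of the other 4 pairs included 1.

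The spindle checkpoint genes were centred on equality apart from Ttk. Bub1b encodes BubR1, the checkpoint protein that binds and blocks Cdc20. It was at 21.1 FPKM with DCA and 21.1 without, from 6301 and 6609 reads, with a ratio of 0.998 (0.964 to 1.033), so that both libraries held the same level within counting error. Bub1, the kinase at the base of the checkpoint, showed 9.08 FPKM with DCA and 8.97 without, a ratio of 1.012. Its reads did not come out whole with the annotated length. Whole reads of 4935 in DCA and 5102 in NC give its FPKM ratio. The interval of Bub1, drawn in the plot of ratios by role and counted among those that include 1, rests on fewer reads. These are the rounded 3181 in DCA and 3288 in NC, so that the interval is approximate. Bub3, the partner of Bub1 and BubR1, had a ratio of 1.027 (0.989 to 1.067), and Mad2l1, the Mad2 protein that is converted at unattached kinetochores, one of 0.972 (0.934 to 1.012). The kinase Ttk (Mps1), which starts checkpoint signalling, stood apart at 2.16 FPKM with DCA and 1.95 without, from 1430 and 1348 reads, with a ratio of 1.110 (1.030 to 1.197). Of the 6 pairs within the mitotic checkpoint complex of Bub1b, Bub3, Mad2l1 and Cdc20, only Cdc20 against Mad2l1 had an interval above 1, at 1.093 (1.013 to 1.179).

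Genes that act at anaphase lay on both sides. Cdc20 (ENSMUSG00000006398, GRCm38 chromosome 4, 118432901 to 118437352, minus strand), the activator of the APC/C, showed 10.8 FPKM with DCA and 10.1 without, from 1881 and 1853 reads, and a ratio of 1.062 (0.996 to 1.133) that includes equality. Ube2c, the ubiquitin-conjugating enzyme of the APC/C, had a ratio of 1.043 (0.983 to 1.106). Cdca3, which takes part in the turnover of the Cdk1 inhibitor Wee1, showed 8.46 FPKM with DCA and 7.71 without and a ratio of 1.097 (1.044 to 1.152). Separase, encoded by Espl1, cuts the cohesin ring, and securin, encoded by Pttg1, holds it inactive until the APC/C destroys it. Espl1 was lower in DCA, at 3.54 FPKM with DCA and 3.71 without and a ratio of 0.952 (0.911 to 0.996). Pttg1 was at 1.93 FPKM with DCA and 2.004 without, a ratio of 0.963 (0.877 to 1.059). The ratio of ratios of this pair was 1.012 (0.911 to 1.123).

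No centromere or kinetochore member had an interval that excluded equality. Cenpa, the histone H3 variant that marks centromeres, was at 6.16 FPKM with DCA and 6.05 without, a ratio of 1.018 (0.975 to 1.062). The kinetochore motor Cenpe had a ratio of 1.002 (0.966 to 1.039), and the large coiled-coil protein gene Cenpf one of 0.973 (0.928 to 1.020). Ndc80, Nuf2 and Spc25 encode subunits of the complex that grips microtubules. The ratios were 1.038 (0.985 to 1.094), 1.030 (0.976 to 1.086) and 0.966 (0.906 to 1.030) in that order, and no pair among these genes differed beyond counting error.

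Spindle motor and microtubule genes were the role with the largest share of members higher in DCA apart from the pair of chromosome genes, with 7 of 8 higher, against 53.5% of all tested genes, and 5 of 8 with an interval above 1, against 25.7%. Summed over the role, the ratio of reads was 1.061 (1.045 to 1.077). This role stands out of 8, and the motors Kif23, Kif20a and Cenpe were counted under cytokinesis or the kinetochore. The lean is not particular to this role. Of further kinesins and spindle genes 20 of 26 were higher, and of centrosome genes 9 of 11. Of further kinetochore and centromere genes, 16 of 32 were. Kif11 (ENSMUSG00000012443, GRCm38 chromosome 19, 37376403 to 37421859, plus strand), the kinesin Eg5 that pushes spindle poles apart, showed 21.2 FPKM with DCA and 20.1 without, from 9546 and 9436 reads, and a ratio of 1.059 (1.029 to 1.089). Kif2c, the microtubule-shortening kinesin MCAK, showed 4.33 FPKM with DCA and 3.86 without, from 2288 and 2136 reads, and a ratio of 1.121 (1.056 to 1.190). Hmmr, a hyaluronan receptor that also organises spindle poles, was at 10.9 FPKM with DCA and 9.73 without, with a ratio of 1.118 (1.070 to 1.167). Nusap1 and Tpx2, which bundle and nucleate microtubules, had ratios of 1.072 (1.027 to 1.119) and 1.049 (1.011 to 1.088). Ckap2, at 1.053 (0.977 to 1.136), Kif15, at 1.038 (0.996 to 1.082), and the chromokinesin Kif4, at 0.989 (0.936 to 1.045), had intervals that included equality.

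Cytokinesis genes had the widest span of ratios of the roles, although several of their products work together at the spindle midzone. Prc1 (ENSMUSG00000038943, GRCm38 chromosome 7, 80294450 to 80316259, plus strand), which crosslinks the antiparallel microtubules of the midzone, showed 3.48 FPKM with DCA and 3.69 without, from 5165 and 5737 reads, and a ratio of 0.942 (0.907 to 0.978). Kif20a (ENSMUSG00000003779, GRCm38 chromosome 18, 34624613 to 34633277, plus strand), the midzone kinesin MKLP2, showed 4.24 FPKM with DCA and 3.62 without, from 3418 and 3051 reads, and its ratio of 1.172 (1.116 to 1.232) was the highest of the 44 members. Set against each other, Kif20a over Prc1 gave a ratio of ratios of 1.244 (1.169 to 1.324). Kif23 and Racgap1 form the centralspindlin complex, which recruits Ect2, the activator of RhoA, to the cleavage site. Kif23 was at 7.29 FPKM with DCA and 7.49 without, a ratio of 0.973 (0.941 to 1.006), and Racgap1 at 5.85 FPKM with DCA and 5.29 without, a ratio of 1.107 (1.068 to 1.148). Racgap1 over Kif23 gave a ratio of ratios of 1.138 (1.083 to 1.195). Ect2 had a ratio of 1.016 (0.972 to 1.062). Anln, which encodes the contractile ring protein anillin, was lower in DCA, at 8.92 FPKM with DCA and 9.33 without and a ratio of 0.956 (0.922 to 0.991).

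Over the 8 groups of partner genes examined, 27 pairs were compared and 9 had a counting interval of the ratio of ratios that excluded equality. The pairs are not independent, since Cdk1, Birc5 and Kif20a recur among the 9. The share over pairs of other genes was not computed, and among single tested genes 45.7% had an interval that excluded equality. The count of pairs is therefore not read as a trait of the members. At a limit of 1.1-fold in the FPKM ratio, which was chosen after values were seen, 5 members (11.4%) were higher, namely Kif20a, Kif2c, Hmmr, Ttk and Racgap1, against 13.2% of all tested genes, and 0 were lower, against 8.34%.

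Exons of 12 of the 44 members overlap those of another annotated gene, a smaller share than the 37.5% of all tested genes. No source used here states whether the counting used strand. The overlap took the largest share of exon bases in Kif20a, of which 29.3% lie in exons of Cdc23, an APC/C subunit on the opposite strand. Cdc23 had 3202 reads with DCA and 3391 without, a ratio of 0.988 (0.941 to 1.037), and the sum of both genes had a ratio of 1.075 (1.039 to 1.113). The part of the shared exons in the Kif20a value was not tested. For Kif4, the overlapping Pdzd11 had a ratio of 1.134 (1.048 to 1.226), and the summed ratio was 1.035 (0.989 to 1.083). For Cdc20, whose overlap with Elovl1 covers 2.84% of its exon bases, the summed ratio was 0.991 (0.962 to 1.020). Elovl1 had 7043 reads with DCA and 7574 without, far more than Cdc20, so that sum mainly follows Elovl1. For Cdca8, the overlapping 9930104L06Rik had a ratio of 0.885 (0.813 to 0.963), and the summed ratio of 1.019 (0.978 to 1.062) includes equality, which that of Cdca8 alone does not. The overlap covers 4.48% of the exon bases of Cdca8. All such sums pool every read of both genes and cannot show what the shared bases added to a member. The sum of Prc1 and Rccd1 stayed below 1, at 0.952 (0.918 to 0.986). Processed pseudogenes named after Ccnb1, Ccnb2 and Kif4 exist in the annotation and were not analysed here, and reads that fit a gene and its pseudogene make the values of these members uncertain.

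Other genes of mitosis were counted from lists drawn up by role. Further kinesins and spindle genes were higher in DCA in 20 of 26 tested (76.9%), against 53.5% of all tested genes, with a median ratio of 1.033. At 1.1-fold, 7 of the 26 were higher, against 13.2% of all tested genes, and 1 was lower, against 8.34%. Kif18a, a kinesin that damps the movement of chromosomes, was at 1.131 FPKM with DCA and 0.906 without, a ratio of 1.248 (1.143 to 1.363), and Pimreg had a ratio of 1.214 (1.114 to 1.323). At the other end, Haus5, of the augmin complex, was at 0.842 (0.755 to 0.940) and Kif20b at 0.928 (0.889 to 0.970). Of 32 further kinetochore and centromere genes, 16 were higher and 16 lower, with a median ratio of 1.005. Cenpp and Cenph had the highest ratios, 1.277 (1.080 to 1.511) and 1.201 (1.094 to 1.320), and Cenpw and Dsn1 the lowest, 0.810 (0.699 to 0.938) and 0.854 (0.787 to 0.926).

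Condensin and cohesin genes, which fold and hold the chromosomes, had a median ratio of 1.009. Of these, 13 of 22 (59.1%) were higher, near the 53.5% of all tested genes. At 1.1-fold 0 were apart in either direction, against 13.2% of all tested genes higher and 8.34% lower. Esco1 and Cdca5 were at 1.094 (1.044 to 1.147) and 1.066 (0.994 to 1.143), and Ncapg and Sgo1 at 0.936 (0.898 to 0.976) and 0.936 (0.871 to 1.005). Of 16 tested APC/C subunits, 8 were higher and 8 lower. Cdc16 and Anapc13 were at 1.145 (1.091 to 1.201) and 1.128 (0.994 to 1.282), and Anapc2 and Anapc16 at 0.916 (0.886 to 0.947) and 0.941 (0.874 to 1.013). Centrosome genes were higher in 9 of 11 (81.8%), against 53.5% of all tested genes. Cdk5rap2 and Plk4 were at 1.154 (1.101 to 1.210) and 1.098 (1.046 to 1.153), and Cenpj and Stil, which build the centriole, at 0.855 (0.800 to 0.914) and 0.887 (0.839 to 0.938). Regulators of mitotic entry were higher in 7 of 10 (70%), against the same 53.5%. Pbk had a ratio of 1.143 (1.071 to 1.220) and Melk of 1.109 (1.039 to 1.185), while Pkmyt1, the kinase that inhibits Cdk1, was at 2.77 FPKM with DCA and 3.34 without and a ratio of 0.828 (0.776 to 0.884), and Mastl had a ratio of 0.974 (0.909 to 1.044).

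**Figure D5:**
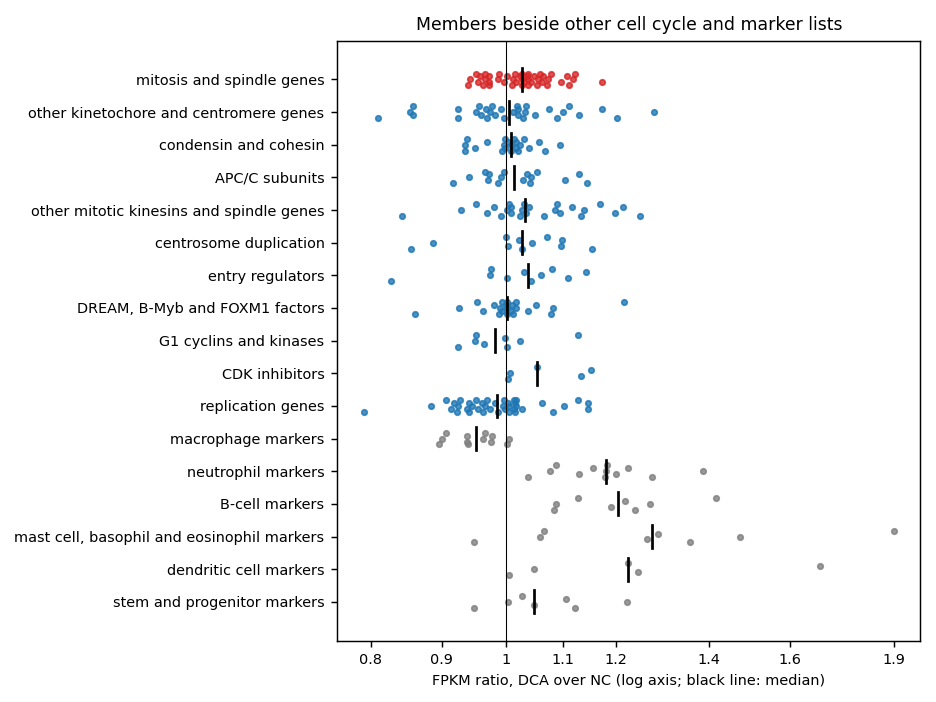
FPKM ratio of DCA over NC (horizontal log axis) for each tested gene of the members (red), of 10 other cell cycle lists (blue) and of marker lists with at least 5 tested genes (grey), with the median of each list as a black line. The medians of the cell cycle lists lie between 0.982 and 1.054. Those of the marker lists run from 0.952 for macrophage markers to 1.274 for mast cell, basophil and eosinophil markers. Neutrophil, B-cell and dendritic cell markers have medians of 1.179, 1.204 and 1.225.

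Genes of the factors that act on CHR, CCAAT and E2F sites, listed with partner proteins such as Rb1 and Rbbp4, lay on both sides of equality. Of 23 tested genes of the DREAM, B-Myb and FOXM1 list, 14 (60.9%) were higher, near the 53.5% of all tested genes, and 9 were lower. The median ratio was 1.003. Foxm1 and Mybl2 (B-Myb), named here for their role after their values were seen, had ratios of 1.001 (0.963 to 1.039) and 1.037 (0.963 to 1.117). E2f5 and Lin54 had the highest ratios, 1.216 (1.079 to 1.371) and 1.081, and E2f1 and Tfdp2 the lowest, 0.861 (0.818 to 0.906) and 0.926 (0.869 to 0.987). E2f1, an activator of the G1 to S transition, was at 8.70 FPKM with DCA and 10.1 without.

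Replication genes, which act earlier in the cycle, were higher in DCA in 16 of 40 and lower in 24, with a median ratio of 0.985, beside 30 of 44 and 1.027 for the mitotic members. The ratio of summed reads was 0.973 (0.967 to 0.979) for the replication genes and 1.027 (1.021 to 1.033) for the members. With 1 library in each group the difference between the lists was not tested. Gins1 and Cdc45 had the lowest ratios, 0.791 (0.719 to 0.870) and 0.884 (0.834 to 0.936), and Gins3 and Prim2 the highest, 1.146 (1.044 to 1.259) and 1.146 (1.075 to 1.222). G1 cyclins and kinases were higher in 3 of 8, with Ccnd2 at 1.127 (1.091 to 1.164), Ccnd3 at 1.024 (0.993 to 1.056), Cdk6 at 0.951 (0.924 to 0.978) and Ccne2 at 0.924 (0.881 to 0.970). All 5 tested CDK inhibitors were above 1, with Cdkn2d and Cdkn2c at 1.152 (1.081 to 1.227) and 1.132 (1.060 to 1.208). Cdkn1a, the p53 target p21, was at 17.6 FPKM with DCA and 17.5 without and a ratio of 1.004 (0.972 to 1.038), and Cdkn1b had a ratio of 1.008 (0.977 to 1.039).

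Markers of other cells that could divide in a marrow culture were read in the same libraries. Mast cell, basophil and eosinophil markers were higher in 7 of 8 tested, against 53.5% of all tested genes, with a median ratio of 1.274. Epx was at 1.899 (1.651 to 2.187), Prg2 at 1.471 (1.407 to 1.539), Cpa3 at 1.058 (0.965 to 1.160) and Kit at 0.9497. Dendritic cell markers were higher in 5 of 5 and stem and progenitor markers in 6 of 7, with median ratios of 1.225 and 1.048. Of the T- and NK-cell markers only Cd4 passed the filter, at 1.516 (1.313 to 1.753), and no erythroid or stromal marker did. How much of the mitotic transcripts came from cells other than macrophages was not tested.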

How the data were processed

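The authors deposited FPKM values for 15576 genes, 1 column per library, and no p-value could be computed from 1 library per group. The build was GRCm38, and the tools included HTSeq 0.6.0, STAR 2.5.0c, DESeq2 3.0, Picard 1.126 and bedtools 2.17.0, per the submitters' processing notes, which give them no role or order here. The gene length, strand setting and gene filter behind the table are not stated. Columns were matched to libraries by title.

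With the summed length of a gene's GENCODE vM21 transcripts, FPKM became whole reads within 0.05 of a read in both libraries for 11371 of 11794 genes with fewer than 5000 reads (96.4%), at totals of 56570555 (DCA) and 59205366 (NC). Summed lengths make FPKM too low for genes with many transcripts, so levels between genes were compared per merged exon length. Ratios do not depend on length. Reads served only for Clopper-Pearson intervals, length-corrected levels and conditional ratios of ratios. Differences used log2(FPKM + 1) with a mean FPKM of at least 1, which understates ratios of genes with low FPKM. Overlaps ignore strand.

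The members, gene lists and limits were chosen with earlier results of these data known. Values are given in full for 14 genes fixed by name and the 6 highest and 6 lowest members, and for up to 2 genes at each end of a list. Other genes were named after their values were seen. Rebuilding, intervals, limits and motif search were tested on simulated data. Python 3.11.15, numpy 2.4.6, pandas 2.3.3, scipy 1.17.1 and matplotlib 3.10.9 were used. Alternatives covered pseudocount, filter, scaling and overlapping exons.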

Additional observations from a re-analysis of the deposited data

How the results depend on the processing

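The median difference of the members stayed above 0 under all 7 alternatives tried, between 0.022 with pseudocount 5 and 0.039 with pseudocount 0.1, while the median of all tested genes moved to -0.0048 when each library was rescaled to 1e6. With that rescaling 29 members were higher, against 47.8% of all tested genes. The count of lower members was 8 of 29 with a mean FPKM of at least 5, against 14 of 44, since fewer genes are tested. No alternative put a member 1.2-fold apart. The ratio of summed reads was 1.021 when scaled by the median ratio of all tested genes, a shift that follows from the scaling itself. Without members with overlapping exons it was 1.024, and 10 and 3 members had intervals above and below 1. Of the 24 members with full values, only Kif20a moved by more than the median half-width of the members' counting intervals (4.51%), from 0.183 to 0.101 with pseudocount 5. No paired analysis was possible because each group has 1 library. Depth limits what can be seen for Cdc25c and Pttg1, and the lack of replicates limits every value.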
